A study of Mus musculus with 12 samples.

Results

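The transcripts described here are 8 genes known from B cells and from myeloid cells, measured in sorted T cells: *Cd79a*, *Cd79b*, *Ms4a1*, *Ighm*, *Cd74*, *C1qa*, *C1qb* and *Lyz2*. They were taken by symbol from the deposited table of raw counts, in which they are 8 of 49585 genes. All 8 passed edgeR's filter on low counts, as did 13118 genes in all. The question asked of them was how much of their RNA each sorted sample held and whether that amount differed between the groups.

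The samples were LN T cells of male mice, 6 to 10 weeks old, with 3 samples a group, each made from sorted cells that were pooled. CD4+ and CD8+ T cells came from C57BL/6 (B6) mice. CD8.1 and CD8.2 T cells came from homozygous CD8Dual mice, named 8in4 in the sample titles, in which the *Cd4* locus was changed to encode CD8α.1 and CD8β in place of CD4 while the *Cd8* locus, encoding CD8α.2 and CD8β, was untouched. CD8.1 T cells therefore carry the co-receptor made from the altered *Cd4* locus and CD8.2 T cells the one made from the *Cd8* locus. All 4 groups were sorted on TCRβ (antibody H57), on CD62L and on the co-receptor. The study's methods add absence of CD44, which the labels do not name. Neither source names a gate on a B cell or myeloid marker. No label says whether the samples of a group came from separate animals, so *P* values measure only the spread between these samples.

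CD79a and CD79b form the signalling dimer of the B cell receptor, whose antigen-binding part on naive B cells is IgM with the heavy chain constant region encoded by *Ighm*. *Ms4a1* encodes CD20, a membrane protein of B cells, and *Cd74* the invariant chain that guides MHC class II molecules to peptide loading in B cells, dendritic cells and macrophages. *C1qa* and *C1qb* encode chains of C1q, the complement component that binds immune complexes and is made mainly by tissue macrophages, and *Lyz2* encodes lysozyme of macrophages, monocytes and neutrophils. B cells are the other main lymphocyte of the LN, and macrophages line its sinuses.

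In GRCm38 (mm10, the authors' build) with GENCODE M21, *Cd79a* (chr7:24897381-24902197, plus strand) ends 714 bases before *Arhgef1* on the same strand. *Cd79b* (chr11:106311341-106314762), *Ms4a1* (chr19:11249675-11266241), *Ighm* (chr12:113418558-113422730), *C1qa* (chr4:136895917-136898803), *C1qb* (chr4:136880129-136886187) and *Lyz2* (chr10:117277331-117282321) lie on the minus strand. *C1qc*, which encodes the remaining C1q chain, lies between *C1qb* and *C1qa*, and *Lyz1* lies 5475 bases from *Lyz2*. *Ms4a1* overlaps an antisense gene, *4930526L06Rik*. Whether counting used strand is not given in the sources used here, so whether strand separated reads of the pair is unknown. No stretch as long as a read in the annotated transcripts of any member, *Ms4a1* included, occurred on either strand in transcripts of another gene.

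Promoter sequences (RefSeq, GRCm38.p6), from 250 bases before to 50 after the RefSeq start, were on hand for 3 of the 8 members. The windows are those of *Cd79a*, a B cell member, and of *C1qb* and *Lyz2*, myeloid members, and do not stand for the other members. Each is printed 5′ to 3′ along its gene, at chr7:24897247-24897546 (plus strand), chr4:136886151-136886450 (minus strand) and chr10:117282223-117282522 (minus strand), and the capitals mark the core letters bound by Ets factors such as PU.1 and Spi-B, GGAAGT or its reverse complement ACTTCC.
*Cd79a*: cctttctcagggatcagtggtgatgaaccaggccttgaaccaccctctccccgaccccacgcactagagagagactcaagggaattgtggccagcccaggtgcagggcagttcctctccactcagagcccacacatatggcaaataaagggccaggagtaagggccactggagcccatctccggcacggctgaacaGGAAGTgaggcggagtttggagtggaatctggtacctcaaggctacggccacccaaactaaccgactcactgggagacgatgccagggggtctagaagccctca
*C1qb*: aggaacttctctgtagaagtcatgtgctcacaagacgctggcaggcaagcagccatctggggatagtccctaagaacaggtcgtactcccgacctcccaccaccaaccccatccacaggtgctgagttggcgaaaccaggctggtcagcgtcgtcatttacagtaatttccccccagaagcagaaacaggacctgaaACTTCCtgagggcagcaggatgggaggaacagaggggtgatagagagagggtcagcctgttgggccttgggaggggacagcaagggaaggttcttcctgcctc
*Lyz2*: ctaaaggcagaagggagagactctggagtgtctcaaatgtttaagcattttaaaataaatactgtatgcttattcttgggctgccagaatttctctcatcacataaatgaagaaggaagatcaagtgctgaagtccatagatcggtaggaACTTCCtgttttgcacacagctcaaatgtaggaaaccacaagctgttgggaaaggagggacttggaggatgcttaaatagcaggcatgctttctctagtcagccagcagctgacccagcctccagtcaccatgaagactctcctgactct
Each window held the Ets core once, starting 54, 53 and 100 bases before the RefSeq start of *Cd79a*, *C1qb* and *Lyz2*. RefSeq starts differ from the ends of the GENCODE genes given above, and the core of *Cd79a* lies inside the GENCODE gene. These letters are common, being found in 23.8% of 32851 promoter windows of this length. The octamer ATGCAAAT (found in 1.74% of all windows), the palindromic motif of Ebf1 (0.904%) and TATAAA (13.6%) were searched on both strands and had no match in the 3 windows. A match is a description of the letters, not evidence of binding.

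Total counts were 18667474 to 37110502 per sample, at which 3 counts correspond to 0.0874 to 0.167 CPM. CPM are a gene's counts divided by the TMM-scaled library size and brought to the same round total in every sample. Floors and intervals cover the error of counting alone, because PCR makes copies that are no independent molecules. The T cell gene *Cd3e* had group means of 309 to 343 CPM. *Cd4* stood at 907 to 1003 CPM in B6 CD4+ cells, at most 0.337 CPM in B6 CD8+ cells, 47.1 to 51.4 CPM in CD8.1 cells, whose *Cd4* locus is altered, and at most 1.79 CPM in CD8.2 cells, so no library went against its label in this gene. CD8.2 replicate 3 stood apart from the other samples: it was the deepest library, *Gm42418* took 3.14% of its counts against 0.0878% to 0.888% in the other 11, and most B cell genes were lower in it than in CD8.2 replicates 1 and 2. Fold changes of members between CD8.2 cells and another group are therefore given with and without it. So are the counts of calls in the B cell, class II and macrophage lists. Other values that involve CD8.2 cells include it unless stated.

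Together the 8 members held 0.0626% to 0.105% of a sample's counts, most of it *Ighm*. Without *Ighm*, the other 7 members held 0.0122% of counts in B6 CD8+ replicate 2, the lowest sample (Wilson 95% interval 0.0118% to 0.0126%), and 0.0425% in CD8.1 replicate 2, the highest (0.0416% to 0.0433%). *Cd79a*, *Cd79b* and *Ms4a1* together took 0.00509% to 0.0126%, and *C1qa*, *C1qb* and *Lyz2* together 0.000152% to 0.00187%. Because whole sorted populations were sequenced, fewer cells of a type and less RNA per cell cannot be told apart.

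Genes were ranked against each other by CPM per kilobase of their longest coding transcript, taken as a percent of *Cd3e* on that scale in the same sample. *Ighm* stood at 123% to 167% of *Cd3e* and so above it in all 12 samples. *Cd74* stood at 20.5% to 104%, *Cd79a* at 3.22% to 17.3%, *Cd79b* at 6.07% to 15.6% and *Ms4a1* at 0.848% to 6.46%. *Lyz2* stood at 0.442% to 5.84%, *C1qa* at 0.0165% to 1.20% and *C1qb* at 0.0197% to 0.575%. The ranges of *Cd79a* and *Cd79b* overlapped, and their order changed with the group: per kilobase, *Cd79b* exceeded *Cd79a* in B6 CD8+ cells (9.82% to 11.9% against 3.22% to 4.04%) and not in B6 CD4+ cells (6.07% to 7.73% against 6.91% to 8.74%).

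**Figure D1:**
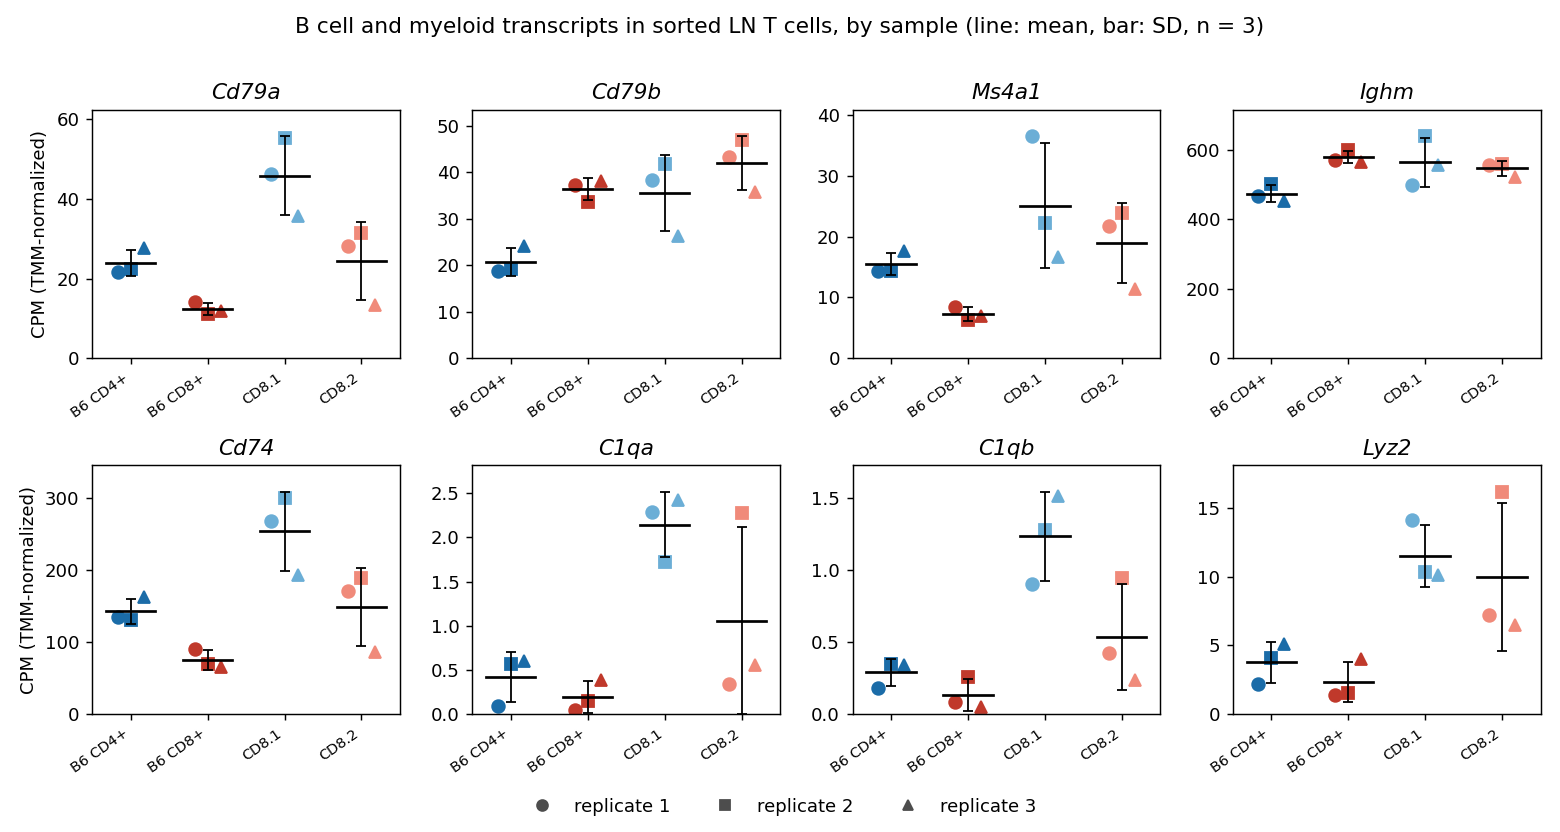
Level of each of the 8 members in CPM (vertical axis, linear, from 0, a scale of its own in each panel) in the 3 samples of each group (horizontal axis). Markers are samples, with a shape for each replicate number, lines are group means and bars are SD; *Cd79a* and *Cd74* share a pattern, highest in CD8.1 cells, that *Cd79b* and *Ighm* do not.

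Values by sample follow in CPM, in the order of replicates 1, 2 and 3. *Cd79a* stood at 21.7, 22.3 and 27.8 in B6 CD4+ cells, 14.1, 11.2 and 11.9 in B6 CD8+ cells, 46.4, 55.4 and 35.7 in CD8.1 cells and 28.3, 31.5 and 13.3 in CD8.2 cells. Its group means were 23.9 ± 3.32, 12.4 ± 1.48, 45.9 ± 9.86 and 24.4 ± 9.75 (SD, n = 3). Every CD8.1 sample was above every other sample and the B6 CD8+ samples were the lowest of the B6 samples, while CD8.2 replicate 3 fell within the B6 CD8+ range. B6 CD4+ and CD8.2 cells, neighbours in this order, did not separate.

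*Cd79b*, the partner of *Cd79a* in the same dimer, stood at 18.8, 19.3 and 24.1 CPM in B6 CD4+ cells and at 37.4, 33.6 and 38.1 in B6 CD8+ cells. In CD8.1 cells it stood at 38.4, 41.9 and 26.4 and in CD8.2 cells at 43.4, 47.0 and 35.8. Its group means were 20.7 ± 2.95, 36.4 ± 2.40, 35.6 ± 8.14 and 42.0 ± 5.71 CPM (SD, n = 3). B6 CD4+ cells were the low group, below all 9 other samples, and the remaining groups overlapped one another.

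*Ighm* was the most abundant member, at 467, 502 and 453 CPM in B6 CD4+ cells and 573, 600.2 and 566 CPM in B6 CD8+ cells. It stood at 499, 639 and 557 CPM in CD8.1 cells and 557, 561 and 523 CPM in CD8.2 cells. Its highest sample exceeded its lowest only 1.41-fold, against 4.94-fold for *Cd79a*. The B6 groups did not overlap, with B6 CD4+ cells lower, and CD8.1 cells spanned the whole range of CD8.2 cells.

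*Ms4a1* (CD20) stood at 14.4, 14.4 and 17.6 CPM in B6 CD4+ cells and at 8.47, 6.25 and 7.02 CPM in B6 CD8+ cells. In CD8.1 cells the values were 36.5, 22.2 and 16.6 CPM and in CD8.2 cells 21.7, 23.8 and 11.4 CPM. CD8.1 replicate 1 was the highest sample by far and CD8.1 replicate 3 was within the range of the B6 CD4+ samples, so that CD8.1 cells overlapped both CD8.2 and B6 CD4+ cells. B6 CD8+ cells were below the 9 other samples.

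*Cd74*, the invariant chain, stood at 134, 131 and 163 CPM in B6 CD4+ cells and at 90.4, 69.1 and 65.3 CPM in B6 CD8+ cells. It stood at 269, 299.7 and 193 CPM in CD8.1 cells and at 170.1, 188 and 86.2 CPM in CD8.2 cells. Its group means were 143 ± 17.4, 74.9 ± 13.5, 254 ± 54.6 and 148 ± 54.4 CPM (SD, n = 3). The order was that of *Cd79a*, with all CD8.1 samples on top, B6 CD8+ cells lowest, and CD8.2 replicate 3 inside the B6 CD8+ range.

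The myeloid members rested on few counts. *C1qa* had 2, 13 and 14 counts in B6 CD4+ cells, 1, 4 and 8 in B6 CD8+ cells, 48, 39 and 51 in CD8.1 cells and 8, 41 and 19 in CD8.2 cells. *C1qb* had 4, 8 and 8, then 2, 7 and 1, then 19, 29 and 32, and then 10, 17 and 8 counts in the same groups. Group means of *C1qa* were 0.415 ± 0.282, 0.190 ± 0.176, 2.14 ± 0.370 and 1.06 ± 1.06 CPM, and those of *C1qb* 0.289 ± 0.0927, 0.128 ± 0.111, 1.24 ± 0.309 and 0.534 ± 0.368 CPM (SD, n = 3). For both genes the 3 CD8.1 samples were above all 6 B6 samples, and values of 1 to 3 counts in B6 mice were at the floor of the depth.

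*Lyz2*, with more counts, stood at 2.14, 4.09 and 5.06 CPM in B6 CD4+ cells, 1.39, 1.53 and 3.99 CPM in B6 CD8+ cells, 14.1, 10.3 and 10.1 CPM in CD8.1 cells and 7.19, 16.2 and 6.50 CPM in CD8.2 cells. All 6 CD8Dual samples were above all 6 B6 samples. CD8.2 replicate 2 was the highest sample of all for *Lyz2* and was close to the CD8.1 samples for *C1qa* (2.28 against 1.72 to 2.42 CPM), whereas the other 2 CD8.2 samples were below all CD8.1 samples for both genes.

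Between B6 CD4+ and CD8+ cells, the B cell members moved in opposite directions. *Cd79a* was 1.93-fold higher in B6 CD4+ cells (log2 fold change 0.95, SE 0.249, adjusted *P* = 0.0111), *Ms4a1* 2.14-fold higher (1.10, SE 0.284, adjusted *P* = 0.0102) and *Cd74* 1.90-fold higher (0.93, SE 0.230, adjusted *P* = 0.00760). *Cd79b* was 1.76-fold lower (−0.81, SE 0.154, adjusted *P* = 0.00102) and *Ighm* 1.22-fold lower (−0.29, SE 0.0834, adjusted *P* = 0.0194). Fold changes and *P* values came from edgeR's quasi-likelihood test in a single model over the 12 samples, with Benjamini-Hochberg adjustment over all genes tested and a call at an adjusted *P* under 0.05. That model did not pair samples. A fit that paired the B6 samples by replicate number changed no member's call in this comparison. Of the 8 members, 3 rose and 2 fell. Of all genes tested in this comparison, 23.1% were called, 11.4% as higher and 11.7% as lower in B6 CD4+ cells. The myeloid members had log2 fold changes of 1.19 (*C1qa*, SE 0.871), 1.07 (*C1qb*, SE 0.697) and 0.75 (*Lyz2*, SE 0.439), with adjusted *P* of 0.388, 0.322 and 0.264, and did not pass. Without B6 CD8+ replicate 2, the calls of *Cd79a*, *Ms4a1* and *Ighm* were lost (adjusted *P* = 0.0530, 0.0566 and 0.0670), and that of *Ighm* was also lost without B6 CD4+ replicate 3 (0.0652). Calls over all genes were 3030 with every sample and 2422 and 2525 in these fits.

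Between CD8.1 and CD8.2 cells, *Cd79a* was 1.91-fold higher in CD8.1 cells (log2 fold change 0.93, SE 0.238, adjusted *P* = 0.00859) and *Cd74* 1.72-fold higher (0.78, SE 0.227, adjusted *P* = 0.0180). These were the 2 members called, in a comparison where 28.7% of all genes tested were called, 14.9% as higher and 13.8% as lower. *Cd79b* and *Ighm*, which were lower in B6 CD4+ than in CD8+ cells, had log2 fold changes of −0.24 (SE 0.151, adjusted *P* = 0.262) and 0.05 (SE 0.0833, adjusted *P* = 0.715). *Ms4a1* had 0.42 (SE 0.264, adjusted *P* = 0.258), *C1qa* 1.10 (SE 0.601, adjusted *P* = 0.188), *C1qb* 1.31 (SE 0.491, adjusted *P* = 0.0587) and *Lyz2* 0.23 (SE 0.369, adjusted *P* = 0.678). Without CD8.2 replicate 3 the change of *Cd79a* was 0.62 (adjusted *P* = 0.0176) and that of *Cd74* was 0.50 and no longer passed (adjusted *P* = 0.0531). For *Cd79b*, *Ighm*, *Ms4a1*, *C1qa*, *C1qb* and *Lyz2* the change was then −0.34, 0.02, 0.14, 0.76, 0.88 and −0.01. Their adjusted *P* were 0.154, 0.930, 0.729, 0.468, 0.250 and 0.989. *Cd74* also did not pass without CD8.1 replicate 2 (adjusted *P* = 0.0822) or in a fit of these groups alone (adjusted *P* = 0.0547). Without CD8.2 replicate 2, *C1qa* and *C1qb* were called (log2 fold change 2.22 and 1.94, adjusted *P* = 0.0147 and 0.0161), and without CD8.1 replicate 1 *C1qb* was (1.49, adjusted *P* = 0.0372). Calls over all genes were 3771 with every sample and 2584 without CD8.2 replicate 3. They were 2702 without CD8.1 replicate 2, 3197 with these groups alone, 3068 without CD8.2 replicate 2 and 4967 without CD8.1 replicate 1.

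Between CD8.1 and B6 CD4+ cells, the groups whose co-receptor is encoded by the *Cd4* locus, members of both kinds were higher in CD8.1 cells. The 3 myeloid members rose most, *C1qa* 5.06-fold (log2 fold change 2.34, SE 0.662, adjusted *P* = 0.0318), *C1qb* 4.20-fold (2.07, SE 0.528, adjusted *P* = 0.0192) and *Lyz2* 3.04-fold (1.61, SE 0.395, adjusted *P* = 0.0163). *Cd79a* rose 1.92-fold (0.94, SE 0.237, adjusted *P* = 0.0185), *Cd74* 1.78-fold (0.83, SE 0.227, adjusted *P* = 0.0269) and *Cd79b* 1.72-fold (0.78, SE 0.155, adjusted *P* = 0.00526). *Ms4a1* (0.70, SE 0.267, adjusted *P* = 0.0985) and *Ighm* (0.25, SE 0.0834, adjusted *P* = 0.0581) did not pass. Of the 8 members, 6 were called, all higher, where 12.8% of all genes were called, 6.94% as higher and 5.82% as lower. With a sample left out, the log2 fold changes ran from 1.87 to 2.66 for *C1qa*, 1.82 to 2.25 for *C1qb*, 1.32 to 1.86 for *Lyz2*, 0.78 to 1.09 for *Cd79a* and 0.70 to 0.99 for *Cd74*, and calls were lost. With either B6 CD4+ replicate 1 or replicate 2 left out, *Cd79b* was the 1 member still called, and without CD8.1 replicate 2 only *Cd79b* and *Lyz2* were. Calls over all genes fell as well, from 1674 with every sample to 769, 885 and 819 in these fits. Without CD8.1 replicate 3, *C1qa* and *C1qb* were lost (adjusted *P* = 0.0630 and 0.0528) and *Ms4a1* was gained (0.92, adjusted *P* = 0.0313). Without CD8.1 replicate 1, *Ighm* was gained (0.33, adjusted *P* = 0.00439). Over all genes, 1358 were called without CD8.1 replicate 3 and 2975 without CD8.1 replicate 1.

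Between CD8.2 and B6 CD8+ cells, *Lyz2* was 4.35-fold higher in CD8.2 cells (log2 fold change 2.12, SE 0.418, adjusted *P* = 0.00653), *Ms4a1* 2.59-fold (1.37, SE 0.283, adjusted *P* = 0.00845), *Cd74* 1.97-fold (0.98, SE 0.230, adjusted *P* = 0.0177) and *Cd79a* 1.94-fold higher (0.96, SE 0.249, adjusted *P* = 0.0302). These 4 members were called, all higher, where 7.94% of all genes were called, 3.29% as higher and 4.66% as lower. *Cd79a* and *Cd74* nonetheless overlapped between the groups through CD8.2 replicate 3. Without that library their log2 fold changes were 1.27 and 1.26 (adjusted *P* = 0.00109 for each), with 1.65 for *Ms4a1* (adjusted *P* = 0.00257) and 2.36 for *Lyz2* (adjusted *P* = 0.00762). *C1qa* (2.42, SE 0.789, adjusted *P* = 0.0738), *C1qb* (1.83, SE 0.646, adjusted *P* = 0.0953), *Cd79b* (0.21, SE 0.150, adjusted *P* = 0.444) and *Ighm* (−0.08, SE 0.0833, adjusted *P* = 0.600) did not pass. Without CD8.2 replicate 3 they did not pass either, at 2.76, 2.26, 0.31 and −0.05 (adjusted *P* = 0.0876, 0.0689, 0.340 and 0.841). *Cd79a* lost its call when CD8.2 replicate 1 or 2 or B6 CD8+ replicate 1, 2 or 3 was left out (adjusted *P* = 0.120, 0.140, 0.0646, 0.125 and 0.0848), and by limma-voom (0.0884). *Cd74* lost its call without CD8.2 replicate 1 or 2 or B6 CD8+ replicate 2 or 3 (adjusted *P* = 0.0801, 0.0968, 0.0909 and 0.0703), and *Ms4a1* without B6 CD8+ replicate 2 (0.0583). Calls over all genes fell as well, from 1042 with every sample to 536 and 446 without CD8.2 replicate 1 or 2. They were 478, 437 and 820 without B6 CD8+ replicate 1, 2 or 3. *Lyz2* was called with each of the 12 samples left out in turn.

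Whether the change between the lineages differed between CD8Dual and B6 mice was tested by an interaction term. By edgeR 0 of the 8 members passed, where 1.87% of all genes did (1.58% with a positive and 0.290% with a negative interaction). At an unadjusted *P* under 0.05 there were 2, *Cd79b* (0.57, SE 0.215, adjusted *P* = 0.257) and *Ighm* (0.34, SE 0.118, adjusted *P* = 0.224). DESeq2, limma-voom and edgeR without CD8.2 replicate 3 also called 0, with 2 members each at an unadjusted *P* under 0.05. Without CD8.1 replicate 1 *Ighm* passed (0.42, adjusted *P* = 0.0128), and without CD8.1 replicate 3 *Cd79b* did (0.75, adjusted *P* = 0.0387). *Cd79b* also passed when replicate numbers were blocked (0.56, adjusted *P* = 0.0479). Calls over all genes were 245 in the main fit and 1378, 213 and 330 in these fits. The comparisons within and between strains share samples, so their values are given side by side and not set against each other. Under the study's own limits, a fold change over 5 and an unadjusted *P* under 0.05, *C1qa* was the 1 member that passed, in CD8.1 against B6 CD4+ cells and in CD8.2 against B6 CD8+ cells (5.35-fold, unadjusted *P* = 0.00780), where 0.610% and 0.579% of all genes did. Within B6 and within CD8Dual mice 0 members passed these limits, which 3.29% and 3.32% of genes did, although 5 and 3 members had an unadjusted *P* under 0.05. The share of all genes at that unadjusted *P* alone is not given here, so these counts and that of the interaction have no background to be read against.

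**Figure D2:**
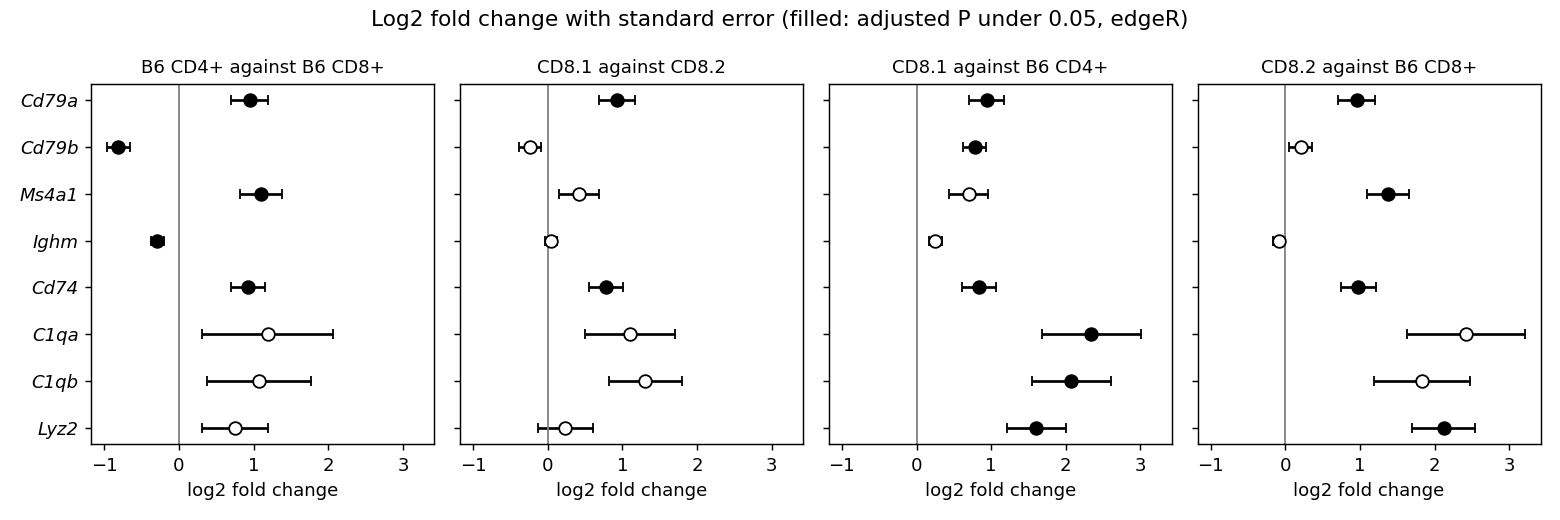
Log2 fold change of each member (horizontal axis, first group relative to second, with SE bars) in the 4 comparisons, with filled symbols for calls (edgeR, adjusted *P* under 0.05). *Cd79b* and *Ighm* lie left of 0 in B6 CD4+ against CD8+ cells, where *Cd79a*, *Ms4a1* and *Cd74* lie right of it, and the 3 myeloid members have the widest bars.

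Ratios of counts within a sample do not depend on depth or scaling, and they separated the B cell members into genes that kept a ratio and genes that did not. *Cd74* stood at 5.41 to 6.50 counts per count of *Cd79a* in all 12 samples, a spread of 1.20-fold, although the level of *Cd79a* itself spread 4.94-fold. *Igkc*, the kappa light chain constant region, stood at 1.55 to 2.18 per count of *Cd79a*, a spread of 1.40-fold. *Ms4a1* stood at 0.400 to 0.862, with CD8.1 replicate 2 lowest, so its ratio varied within CD8.1 cells by 1.96-fold.

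*Cd79b* stood at 0.863 to 0.868 counts per count of *Cd79a* in B6 CD4+ cells and at 0.738 to 0.827 in CD8.1 cells. It stood at 2.66 to 3.20 in B6 CD8+ cells and at 1.49 to 2.70 in CD8.2 cells. The ratio was thus higher in each CD8+ and CD8.2 sample than in any CD4+ or CD8.1 sample, which describes the samples and carries no test. Within CD8.2 cells the ratio was 2.70 in replicate 3, the library with the least *Cd79a*, and 1.49 was the lowest of the others.

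The ratio of *Ighm* to *Cd79a* spread 4.97-fold, from 10.8 to 15.6 for CD8.1, 16.3 to 22.5 for B6 CD4+, 17.8 to 39.5 for CD8.2 and 40.7 to 53.5 for B6 CD8+ cells. *Ighd*, the constant region of IgD that naive B cells express along with IgM, stood at 1.03 to 1.14 per count of *Cd79a* in the B6 CD4+ and CD8.1 samples together, at 1.03 to 1.41 in CD8.2 and at 1.80 to 2.48 in B6 CD8+ cells. Counts of *Ighm* were 10101 to 17957 per sample, while all 185 heavy chain V segments together had 144 to 528 counts, or 0.00872 to 0.0504 per count of *Ighm*. The V segments were lowest per *Ighm* count in B6 CD8+ cells (0.00872 to 0.0122) but stood at 0.333 to 0.581 per count of *Cd79a* over the 12 samples. The 160 kappa V segments had 0.413 to 0.882 counts per count of *Igkc*. How much of a V segment's RNA the authors' alignment could place is unknown, so these ratios are compared between samples and not read as amounts of rearranged transcript.

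**Figure D3:**
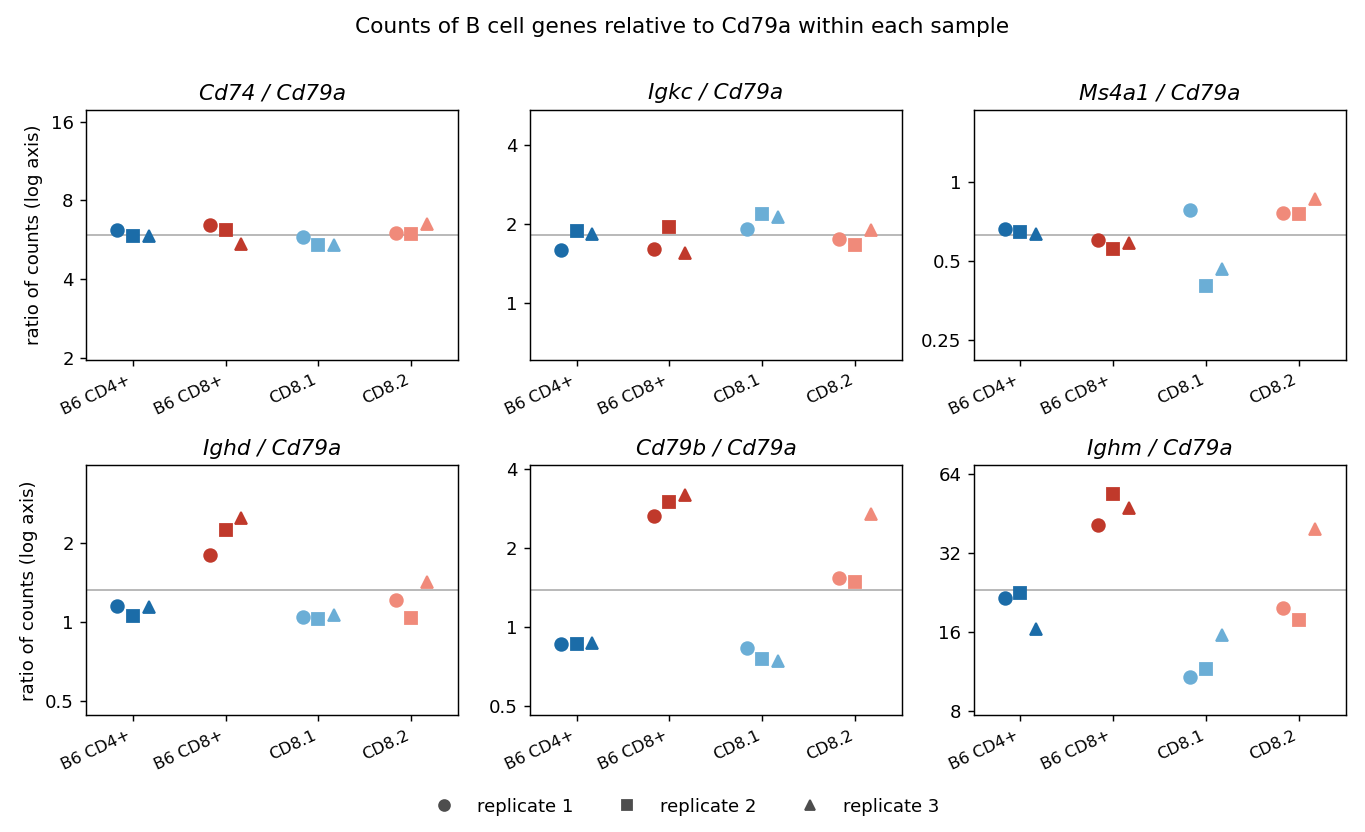
Counts of *Cd74*, *Igkc*, *Ms4a1*, *Ighd*, *Cd79b* and *Ighm* per count of *Cd79a* in each sample (vertical axis, log2 scale; a marker is a sample and the grey line the geometric mean of the 12). *Cd74* stays between 5.41 and 6.50 in every group, while *Cd79b* and *Ighm* are higher in B6 CD8+ and CD8.2 cells than in B6 CD4+ and CD8.1 cells, apart from CD8.2 replicates 1 and 2 for *Ighm*, which lie within the B6 CD4+ range of 16.3 to 22.5.

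Across the 12 samples, which fall into 4 groups, share depth effects and are described without a test, the log2 CPM of *Cd79a* had a Pearson's *r* of 0.995 with *Cd74*, 0.912 with *Ms4a1* and 0.0908 with *Cd79b*. After each group's mean was subtracted, *r* was 0.981, 0.800 and 0.797, so *Cd79b* followed *Cd79a* from sample to sample inside groups and not between them. *Ighm* had an *r* of −0.0247 with *Cd79a*, and 0.305 after the group means were subtracted. *C1qa* and *Lyz2* had an *r* of 0.938 (0.909 inside groups). *Cd79a* and *Lyz2* had 0.754, falling to 0.383 inside groups, and *Lyz2* stood at 0.0983 to 0.512 counts per count of *Cd79a*, so the myeloid and the B cell members did not keep one ratio.

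The other genes of the same cells were read from lists of markers. In the list of 26 B cell genes, which holds 4 of the members, 11 were higher and 3 lower in B6 CD4+ than in B6 CD8+ cells. Their median log2 fold change was 0.79 against −0.0011 over all genes, of which 11.4% were called higher and 11.7% lower. The 3 that fell were *Cd79b*, *Ighm* and *Cd72*, an inhibitory co-receptor of B cells. *Cd72* had mean levels of 10.4 CPM in CD4+ and 38.0 CPM in CD8+ cells of B6 mice, and of 16.6 CPM for CD8.1 and 40.2 CPM for CD8.2 cells, with log2 fold changes of −1.88 in B6 mice (adjusted *P* = 2.14e-07) and −1.28 in CD8Dual mice (adjusted *P* = 1.25e-05) by edgeR. The 11 that rose included *Igkc* (mean 42.6 against 21.0 CPM, log2 fold change 1.02, adjusted *P* = 0.00473), the surface protein *Ly6d* (0.92, adjusted *P* = 0.0102) and the B cell kinase *Blk* (1.17, adjusted *P* = 0.00512). *Pou2af1*, the B cell coactivator OCA-B, had 19.4, 21.1, 23.5 and 22.5 CPM in the 4 groups and was called in none of the 4 comparisons.

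Between CD8.1 and CD8.2 cells, 10 B cell genes were higher and 1, *Cd72*, was lower (median log2 fold change 0.78). Over all genes tested, 14.9% were called higher and 13.8% lower. The B cell genes that rose included *Igkc* (1.18, adjusted *P* = 0.00126), *Ighd* (0.75, adjusted *P* = 0.00902) and *Spib*, an Ets factor of B cells (1.02, adjusted *P* = 0.00758). Without CD8.2 replicate 3, 6 B cell genes were higher and 1 lower, and limma-voom called 16 higher and 1 lower. Between strains, 11 rose in CD8.1 relative to B6 CD4+ cells and 6 in CD8.2 relative to B6 CD8+ cells, with 0 lower in either (median 0.74 in both). Over all genes, 6.94% and 3.29% were called higher in these comparisons, and 5.82% and 4.66% lower. The count for CD8.2 against B6 CD8+ cells was 11 without CD8.2 replicate 3 and 11 by DESeq2. *Igkc* was called in both strain comparisons, at 1.16 (adjusted *P* = 0.00485) and 1.01 (adjusted *P* = 0.0174). The summed level of the list, of which *Ighm* was the largest part, was 726 to 789 CPM for CD4+ and 812 to 859.7 CPM for CD8+ cells of B6 mice, 959.5 to 1198 CPM for CD8.1 and 817 to 1004 CPM for CD8.2 cells, and its part in the other results was not tested.

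Of the 8 genes for MHC class II presentation, *Cd74* included, 5 were higher and 1 lower in B6 CD4+ than in CD8+ cells, and likewise in CD8.1 against CD8.2 cells. Over all genes tested, 23.1% and 28.7% were called in these comparisons. The class II genes that rose in both were *Cd74*, *H2-DMb2* and the class II chains *H2-Aa*, *H2-Ab1* and *H2-Eb1*. *H2-Aa* had mean levels of 78.6, 40.7, 134 and 83.8 CPM in the groups as ordered above, with log2 fold changes of 0.95 (adjusted *P* = 0.00656) and 0.68 (adjusted *P* = 0.0346). The 1 class II gene that fell in both was *H2-DMa*, a chain of the peptide exchange factor H2-DM, with 44.1, 72.8, 84.7 and 112 CPM (−0.72, adjusted *P* = 0.000350 in B6 mice and −0.40, adjusted *P* = 0.0204 in CD8Dual mice). Without CD8.2 replicate 3, 0 of the 8 were called between CD8.1 and CD8.2 cells by edgeR, with 5 at an unadjusted *P* under 0.05, and DESeq2 on all samples called 2 higher and 1 lower. Between strains 5 were higher and 0 lower in each comparison, *H2-DMa* among them (0.94, adjusted *P* = 0.000253, and 0.62, adjusted *P* = 0.00578). Without CD8.2 replicate 3, 6 were higher and 0 lower in each. Over all genes and all samples, 6.94% were called higher in CD8.1 against B6 CD4+ cells and 3.29% in CD8.2 against B6 CD8+ cells. *Ciita*, the class II transactivator, had 2.64, 2.42, 3.82 and 2.78 CPM and was called in none of the 4 comparisons.

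Of 28 genes of macrophages and monocytes, 20 were tested. *Vsig4*, a receptor of tissue macrophages, had 0 counts in every sample, and *Cd14* and *Fcgr1* had at most 3 counts in any. In CD8.1 against B6 CD4+ cells 9 rose and 0 fell (median log2 fold change 1.33): besides the 3 members, *C1qc* (1.69, adjusted *P* = 0.0420), the CSF-1 receptor *Csf1r* (2.16, adjusted *P* = 0.0229), *Cd68* (1.92, adjusted *P* = 0.00457), perforin-2 *Mpeg1* (1.48, adjusted *P* = 0.0101), *Fcer1g* (1.54, adjusted *P* = 0.0408) and *Cst3* (0.31, adjusted *P* = 0.0327). In CD8.2 against B6 CD8+ cells 4 rose and 0 fell (median 1.49), namely *Lyz2*, its neighbour *Lyz1*, *Mpeg1* and the NADPH oxidase subunit *Cybb* (1.45, adjusted *P* = 0.0128). DESeq2 called 7 there, and edgeR 5 without CD8.2 replicate 3. Over all genes tested, 12.8% and 7.94% were called in these comparisons between strains. *C1qc*, *Csf1r*, *Cd68*, *Fcer1g* and *Lyz1* had at most 38, 40, 34, 30 and 28 counts in any sample. Within B6 mice 4 rose and 1, *Cd68*, fell in CD4+ cells, and within CD8Dual mice 4 rose and 0 fell, a count that was 1 without CD8.2 replicate 3 and 7 by limma-voom. Over all genes 23.1% and 28.7% were called in these comparisons, so the calls within each strain were about as frequent in this list, or less so. *Itgam*, the CD11b integrin chain, was among those higher in both (2.43, adjusted *P* = 0.000792, and 2.77, adjusted *P* = 0.000845). The summed level of the list, most of it *Cst3*, a gene many cell types express, was 83.9 to 101 CPM for CD4+ and 87.1 to 90.4 CPM for CD8+ cells of B6 mice, 128 to 147 CPM for CD8.1 and 92.6 to 132 CPM for CD8.2 cells.

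**Figure D4:**
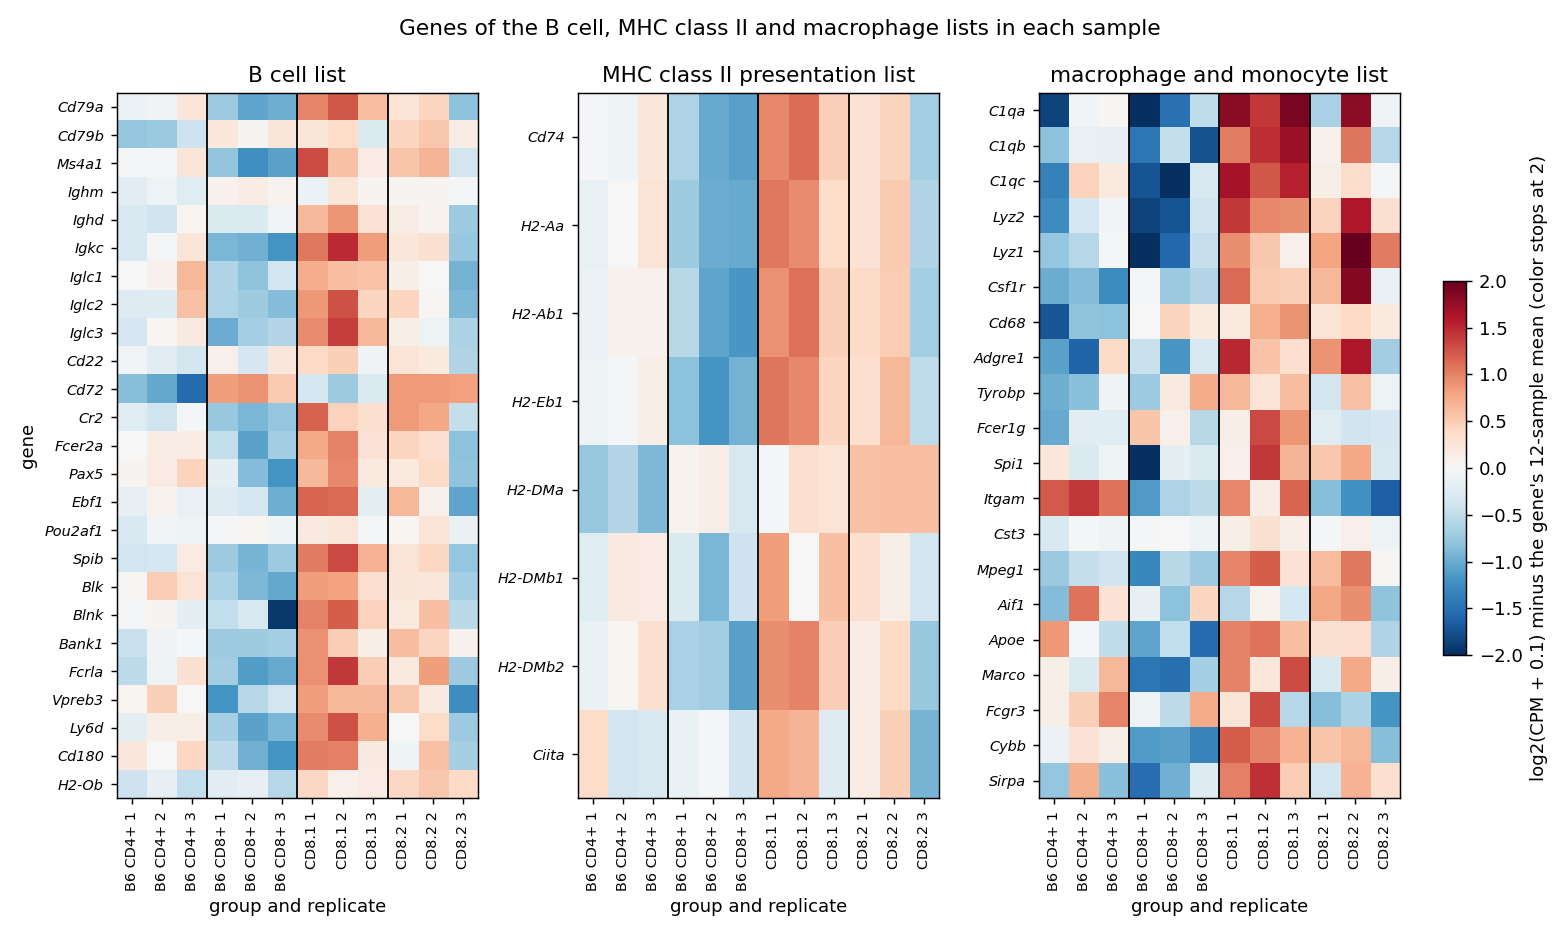
Level of genes of the B cell, MHC class II (8) and macrophage and monocyte (20) lists in the 12 samples, as log2(CPM + 0.1) minus the gene's mean over the 12; the color scale stops at 2 in either direction. Most B cell and class II genes have their highest group mean in CD8.1 cells and are lower in CD8.2 replicate 3 than in the other CD8.2 samples, and *Cd72*, *Cd79b* and *H2-DMa* are lowest in B6 CD4+ cells.

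By likeness over the 12 samples, the genes closest to the log2 level of the summed counts of *Cd79a*, *Cd79b* and *Ms4a1* were *Unc93b1*, which carries nucleic acid-sensing Toll-like receptors to endosomes (Pearson's *r* 0.966, and 0.935 inside groups), the kappa V segment *Igkv10-94* (0.938) and *Prr5* (0.922), followed by *Spib* (0.921) and the complement receptor *Cr2* (0.918). With *Cd79b* left out of the sum, a choice made after its pattern was seen, the closest were *H2-Aa* (0.998), *H2-Eb1* (0.995) and *Cd74* (0.993), and 2 of the first 10 genes were shared with the former list. For *C1qa*, *C1qb* and *Lyz2* the closest were *Mgmt* (0.937), *Mrfap1* (0.929), *Magoh* (0.911), *C1qc* (0.910) and *Mpeg1* (0.909). After the group means were subtracted 0 of these 10 genes were among the first 10, against 3 for the B cell members. With a sample left out, 2 to 8 of them were, against 5 to 9 for the B cell members.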

How the data were processed

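Per the sources, the authors sequenced pooled sorted LN T cells (RNeasy Plus Mini Kit, SMARTer low-input kit, Illumina read pairs), aligned reads to mm10 with STAR and made raw gene counts with RSEM. Versions, annotation release and use of strand are not given in the sources used here. The deposited values are whole-number counts, without normalization, for 49585 genes in 12 samples. Groups came from the sample titles.

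Counts were fitted in R 4.3.3 with edgeR 4.0.16 (filterByExpr, TMM, quasi-likelihood test, 1 model over 4 groups), and *P* values were adjusted by the Benjamini-Hochberg method. The code was tested on simulated data. DESeq2 1.42.0, limma 3.58.1 with voom, other filters, fewer groups, a replicate block and each sample left out were alternatives. Likeness was Pearson's *r* of log2 CPM (prior count 2). The text names the members, genes of the marker lists and the genes most alike; 1 gene of the B cell list is counted but not reported singly here. Members and lists were chosen with earlier results of these data known. Replicates differed by more than sampling noise (chi-square per gene 8.21 to 79.5). Replicate numbers come from the titles, and in B6 mice samples of the same number deviated together (*r* of at least 0.126 in every pair). The main model did not use this pairing, which entered only through the replicate block among the alternatives.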

Additional observations from a re-analysis of the deposited data

How the results depend on the processing

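With the study's limits (fold over 5, unadjusted *P* under 0.05), 0, 0, 1 and 1 of the 8 members passed in B6 CD4+ against CD8+, CD8.1 against CD8.2, CD8.1 against B6 CD4+ and CD8.2 against B6 CD8+ cells, in place of 5, 2, 6 and 4. For CD8.1 against CD8.2 cells the count was 4 with limma-voom, 4 without the filter on low counts and 1 with only the groups compared. Over all genes these fits called 3864 of 13118, 4126 of 23418 and 3197 of 13118. For the interaction the count of members was 2 without the filter (*Cd79b* and *Ms4a1*). With each sample left out in turn, the counts ran from 2 to 5, 1 to 4, 1 to 7 and 1 to 4, and from 0 to 1 for the interaction. The cause was not tested.

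With the replicate block, 1 member passed the interaction test (*Cd79b*, 0.56, adjusted *P* = 0.0479) and *Ighm* passed in CD8.1 against B6 CD4+ cells (0.25, adjusted *P* = 0.0439), while the paired fit within B6 mice changed no member's call. Between strains the numbers did not pair the samples (mean *r* of same-numbered samples −0.113 and −0.0460). In CD8Dual mice any pairing was weak: mean *r* was 0.0686 for the same number and −0.0343 for different numbers. The same-number *r* there was −0.00388, 0.0905 and 0.119. The block in the interaction fit was applied within both strains.

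No called value turned in direction. The interaction of *Cd79a* (−0.02) was 0.11 with limma-voom, 0.035 with the block and −0.33 to 0.21 with a sample left out, and that of *C1qa* (−0.08) 0.43, 0.16 and −0.96 to 1.03. With a sample left out, the interaction ran from −0.75 to 0.86 for *C1qb*, −0.42 to 0.061 for *Cd74* and −1.13 to 0.0070 for *Lyz2*, and the change between CD8.1 and CD8.2 cells from −0.051 to 0.13 for *Ighm* and −0.0097 to 0.75 for *Lyz2*. Of the refitted member values, 664 kept direction and call, 34 lost the call, 21 gained one and 23 turned. Over all genes, 3030 were called in B6 CD4+ against CD8+ cells, and 2422 to 3722 with a sample left out. In CD8.1 against CD8.2 cells 3771 were, and 2584 to 4967 with a sample left out. In CD8.1 against B6 CD4+ cells 1674 were, 684 with only these groups fitted and 769 to 2975 with a sample left out. In CD8.2 against B6 CD8+ cells 1042 were, and 2513, 437 to 1932 and, without the filter, 1593. For the interaction 245 were, 410 by DESeq2, 620 without the filter and 167 to 1378 with a sample left out. The list counts by other tools and without CD8.2 replicate 3 were added after the data were seen. Depth limits *C1qa* and *C1qb*, at 1 to 14 counts in B6 samples.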

Other observations

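Other cell types were covered by further lists. None of 8 neutrophil genes had enough counts to be tested, and their summed level was at most 1.19 CPM in any sample. Of 6 plasma cell genes, 3 were higher in B6 CD4+ than in CD8+ cells (*Prdm1*, *Irf4* and *Xbp1*, which T cells also express), the same 3 were higher in CD8.1 cells than in CD8.2 cells, and *Jchain*, the joining chain of secreted IgM and IgA, was higher in both CD8Dual groups than in their B6 counterparts. *Jchain* had mean levels of 0.419, 0.268, 1.81 and 2.00 CPM in CD4+ and CD8+ cells of B6 mice and CD8.1 and CD8.2 cells, with log2 fold changes between strains of 2.09 (adjusted *P* = 0.00395) and 2.85 (adjusted *P* = 0.000713) by edgeR. *Prdm1* (1.19, adjusted *P* = 0.0110) and *Irf4* (0.99, adjusted *P* = 0.00241) were also higher in CD8.2 than in B6 CD8+ cells. Over all genes, 23.1% and 28.7% were called within B6 and CD8Dual mice. Between strains 12.8% were called for CD8.1 and 7.94% for CD8.2 cells.

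Of 9 dendritic cell genes 3 were tested, and the 1 called, *Itgax*, was lower in B6 CD4+ than in B6 CD8+ cells (0.389 against 4.56 CPM). It was also lower in CD8.1 cells (0.281 against 1.18 CPM for CD8.2 cells, log2 fold change −2.04, adjusted *P* = 0.00194) and fell from B6 CD8+ to CD8.2 cells (−1.97, adjusted *P* = 0.00129). Globin and platelet genes, of which 4 of 7 were tested, had 0 calls in the 4 comparisons by edgeR, with 0, 1, 0 and 0 at an unadjusted *P* under 0.05, and their summed level ran from 0.614 to 26.3 CPM over the 12 samples. Of 10 genes of LN stroma and vessels 2 were tested, *Pecam1* and *Cdh5*, and both were higher in B6 CD4+ and in CD8.1 cells than in B6 CD8+ and CD8.2 cells. *Pecam1* had group means of 190, 119, 148 and 108 CPM, *Cdh5* at most 0.741 CPM, and 6 of the 10 had at most 3 counts. Which cells held the *Pecam1* RNA was not tested. It was lower in CD8.1 than in B6 CD4+ cells (−0.36, adjusted *P* = 0.0272 by edgeR). Without CD8.2 replicate 3, 1 of the 2 genes tested was called between CD8.1 and CD8.2 cells. Over all genes tested, 23.1% were called in B6 CD4+ against CD8+ cells and 28.7% in CD8.1 against CD8.2 cells. Of 5 natural killer cell genes 4 were tested, and *Eomes*, *Klrb1c* and *Klre1*, which CD8+ cells can express, were lower in B6 CD4+ than in B6 CD8+ cells.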
